A study of Mus musculus with 26 samples.

Results

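DN3 thymocytes were compared with CLP across all measured genes. Members were the arrays whose titles read DN3 (n = 3) and CLP (n = 3), 6 of the 26 arrays of the series. DN3 cells are thymocytes without CD4 or CD8 at the third stage of early T cell development. CLP are common lymphoid progenitors of the bone marrow, and a further label of those arrays reads ALP. Both groups came from C57/Bl6 male mice aged 2 months, and the labels name no allele, transgene or treatment in either. Messenger RNA of each population was hybridised to Affymetrix mouse expression arrays, 1 array per sample. The other 20 arrays cover 4 other marrow populations and the DN1 and DN2 thymocyte stages. The cell surface gates used for sorting are not given in the sources used here.

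A marrow lymphoid progenitor still carries transcripts of stem cell, myeloid and B lineage genes, and it has begun to express the recombination machinery of antigen receptor genes. A progenitor that reaches the thymus receives Notch signals from the epithelium and loses those alternatives in steps. At the DN3 stage the T cell receptor beta gene is rearranged, and its product pairs with pre-T alpha and the CD3 chains to form the pre-T cell receptor, whose signal lets the cell divide and move on. The comparison therefore sets a cell in the middle of T cell receptor rearrangement against a cell that precedes the split of the B and T lineages.

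Values are given on the log2 scale of the deposited table, so a difference of 1 is a factor of 2 in signal. A lowest value of 2.17 recurred on every array, and it is called the floor here. On these 6 arrays, 35.6% to 37.1% of probe sets lay at it. A gene rose or fell where the Benjamini-Hochberg adjusted p of limma was under 0.05 over 18194 genes. Where every array of the lower population lay within 1 of the floor, the fold is a lower limit and is written "at least". Standard errors pool the spread within all 8 populations, so a gene that varied among DN1 or DN2 arrays has a wide error here too. A gene at the floor in other populations has a narrow error in turn, since values held at the floor do not vary. The very small p-values of such genes partly reflect this.

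The arrays fell into their labelled populations but differed in some control signals. Pairs of DN3 arrays correlated across genes at 0.992 to 0.997, pairs of CLP arrays at 0.996 to 0.997, and DN3 with CLP arrays at 0.935 to 0.945. Poly-A spike-in RNA, which is added before labelling, gave 12.57, 12.87 and 10.84 on the DN3 arrays, against 4.20, 4.66 and 4.40 on the CLP arrays (exact permutation test, two-sided p = 0.1, the smallest that 3 against 3 arrays can give). When all arrays were clustered by these spike-in signals, no cluster held both CLP and DN3 arrays. The CLP arrays shared a cluster, DN3 replicates 1 and 2 shared a different one, and DN3 replicate 3 fell with CMP arrays. Sample preparation and population therefore cannot be told apart for any difference between DN3 and CLP. Fits below with the spike-in cluster as a random block do not separate them. For the Gapdh control, 3' minus 5' signal was 3.20 ± 0.78 on the DN3 arrays and 3.33 ± 0.24 on the CLP arrays (SD, n = 3; exact permutation p = 0.8). The 18S ribosomal RNA control was at 13.16, 12.86 and 13.01 on the DN3 arrays, against 12.31, 12.24 and 12.44 on the CLP arrays, without overlap (exact permutation p = 0.1). DN3 replicate 3 stood apart from the other DN3 arrays, with 924 genes more than 1 from the mean of the other two, against 250 for replicate 1 and 205 for replicate 2. Whether the replicates are separate mice is not stated in the labels, so p-values measure only the spread between these samples.

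Sex-linked RNA matched the male label in both populations. Eif2s3y, a Y-linked translation factor, was at 12.80, 12.73 and 12.28 on the DN3 arrays, against 12.05, 11.56 and 11.90 on the CLP arrays. Xist, which coats the silenced X of female cells, was at or next to the floor on all 6. On the 6 DN1 and DN2 arrays, which enter the estimate of spread and the stage courses below, 4 carried Xist well above the floor although they are labelled male. Without the DN1 and DN2 arrays 1809 genes were higher and 3011 lower in DN3, close to the numbers given next.

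Of 18194 genes, 1770 were higher in DN3 (9.73%) and 2953 were lower (16.2%), while 13471 did not pass. These shares are the background for every list below. The direction of the balance depended on scaling. In median centring, each array was centred on the median of the genes above the floor on every array, which moved the median change by 0.20. Then 2638 genes were higher and 2400 lower, so the share of higher genes among those that passed was 52.4% in place of 37.5%. With quantile normalization 1912 genes were higher and 2910 lower, a share of 39.7%. A fit to the 6 arrays alone gave 1175 higher and 2456 lower genes. With the spike-in cluster as a random block, 910 were higher and 1908 lower. The changes were large in both directions. Of the genes that rose, 299 did so by more than 3 and 34 by more than 8, and of those that fell, 599 did so by more than 3 and 30 by more than 8. Of the rises, 323 started from values near the floor in CLP, and of the falls, 409 ended near the floor in DN3. In bulk RNA a change in the number of cells of a type and a change in RNA per cell cannot be told apart.

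**Figure D1:**
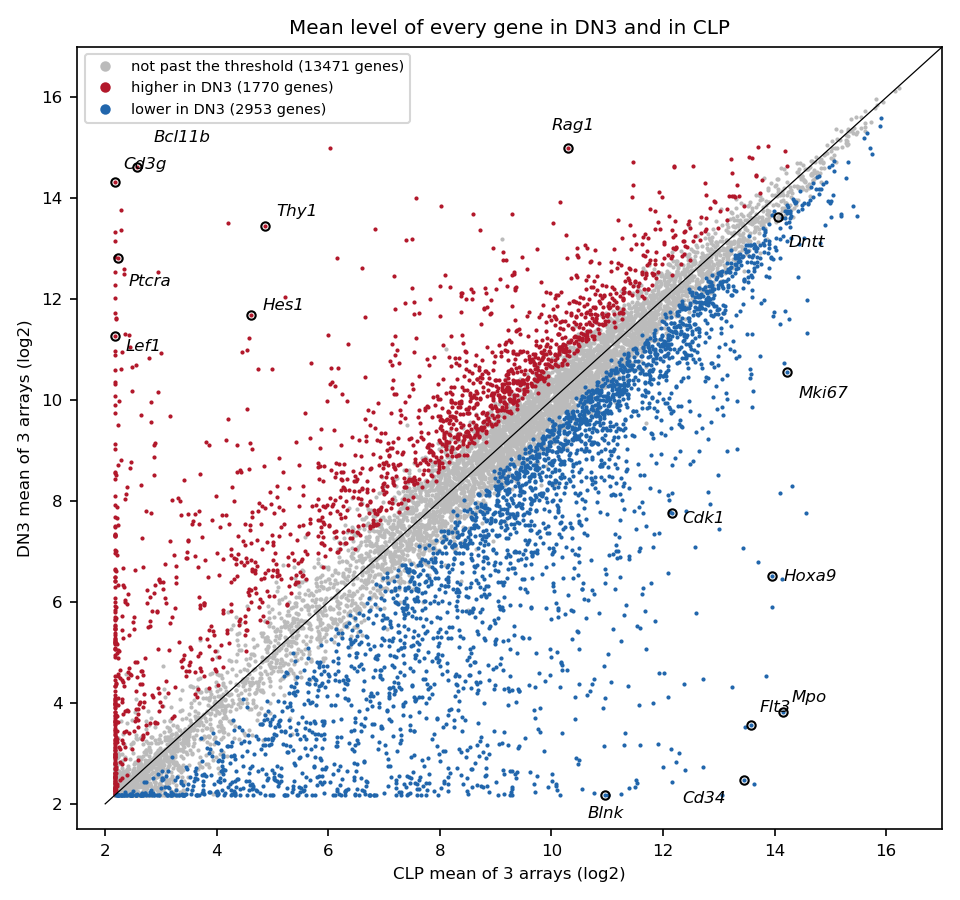
Mean of 3 DN3 arrays (vertical, log2) against the mean of 3 CLP arrays (horizontal, log2) for 18194 genes, with the line of equality. Red marks the 1770 genes higher in DN3 and blue the 2953 lower, and T cell receptor genes such as Cd3g lie on the left edge at the CLP floor while Blnk and Cd34 lie along the bottom at the DN3 floor.

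The CD3 chains and pre-T alpha were higher in DN3. Of 10 genes listed for the CD3 complex and the pre-T cell receptor, 7 were measured, and 7 of 7 were higher in DN3 (background 9.73%), with a median difference of 8.18 against 0 over all genes. Ptcra, which encodes pre-T alpha, was at 12.87, 13.25 and 12.32 on the DN3 arrays, against 2.23, 2.20 and 2.24 on the CLP arrays. The CLP values lay next to the floor, so the gene was at least 1543-fold higher in DN3 (difference 10.59, SE 0.25, adjusted p = 3.72e-17). Cd3g, the CD3 gamma chain, was at 14.45, 14.48 and 14.06 on the DN3 arrays and at the floor on all 3 CLP arrays, at least 4582-fold higher (adjusted p = 1.73e-12). Cd3d, the delta chain, was at 13.29, 13.47 and 13.21 in DN3 and at the floor in CLP, at least 2278-fold higher (SE 1.09 on the log2 scale, adjusted p = 1.01e-07). That error pools a spread of 3.94 ± 2.93 (SD, n = 3) in DN1 and 4.12 ± 2.84 in DN2, whereas the DN3 and CLP arrays lay close together.

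The remaining members of the list moved the same way. Cd3e, the epsilon chain, was at 9.55, 9.75 and 9.24 in DN3, against 2.18, 2.18 and 2.31 in CLP, at least 156-fold higher (adjusted p = 3.54e-15). Cd247, the zeta chain that carries most of the complex's signalling motifs, was at 11.69, 11.62 and 10.53 in DN3, against 7.10, 7.40 and 7.08 in CLP, which gave a difference of 4.09 (SE 0.35, adjusted p = 1.69e-08), or 2.09 with the mean of its probe sets. Of the 4 CD3 complex chains it was the one that CLP held clearly above the floor. Trat1, an adaptor bound to the receptor complex, was at 10.78, 10.78 and 10.44 in DN3, against 2.46, 2.80 and 2.19 in CLP (at least 291-fold, adjusted p = 1.45e-19). Tcra, the alpha locus, which rearranges only at a later stage, was at 6.74, 6.18 and 2.58 on the DN3 arrays and at the floor on all CLP arrays. The third DN3 array was near the floor for it, so the rise of 3.00 (adjusted p = 0.000693) rested on the first and second arrays, and it did not pass in a fit to the 6 arrays alone (adjusted p = 0.213).

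**Figure D2:**
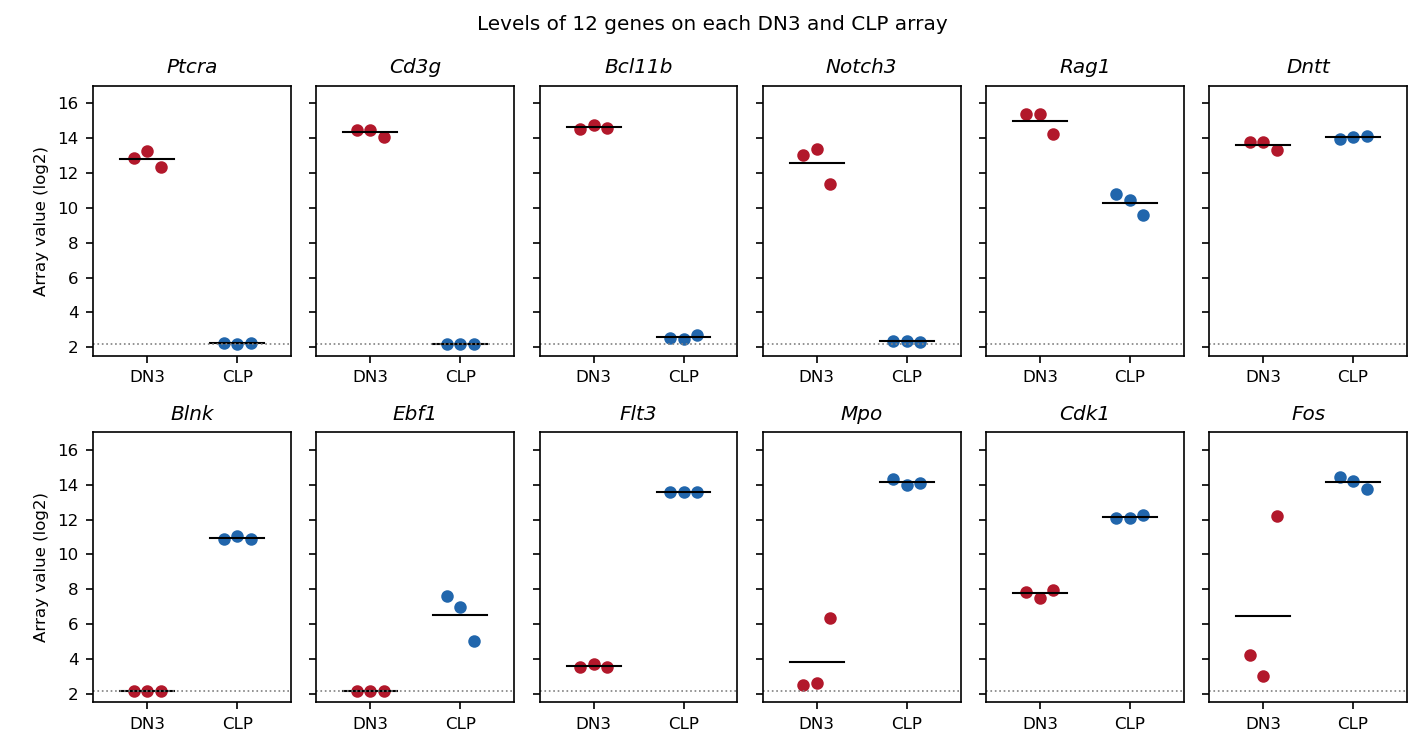
Array values (log2) of 12 genes, with DN3 arrays (red) left of CLP arrays (blue), bars at the mean of 3 arrays and the floor as a dotted line. Ptcra, Cd3g, Bcl11b and Notch3 sit near the floor in CLP, Blnk and Ebf1 sit on it in DN3, and for Mpo and Fos the third DN3 array lies above the other DN3 arrays.

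The promoters of 4 genes that rose far and of Blnk, which fell, are shown 5' to 3' from 250 bases before to 50 after the RefSeq start (build GRCm38.p6), since 3 of them belong to CD3 genes that lie close together and rose together. Capitals mark matches to 6 short motifs searched on both strands: the E-box CAGGTG of E proteins, the Tcf/Lef core CTTTGA, the Runx motif TGTGGT, the Ets motif CGGAAG, the Rbpj motif TGGGAA of the Notch pathway and the Ebf core CCCNNGGG. A match on the other strand reads as the reverse complement, CACCTG for the E-box and TCAAAG for the Tcf/Lef core. Ptcra lies at chr17:46763663-46763962, Cd3g at chr9:44980382-44980681 and Cd3e at chr9:45009562-45009861, all on the minus strand, Cd3d at chr9:44981536-44981835 on the plus strand and Blnk at chr19:40994172-40994471 on the minus strand.
Cd3g: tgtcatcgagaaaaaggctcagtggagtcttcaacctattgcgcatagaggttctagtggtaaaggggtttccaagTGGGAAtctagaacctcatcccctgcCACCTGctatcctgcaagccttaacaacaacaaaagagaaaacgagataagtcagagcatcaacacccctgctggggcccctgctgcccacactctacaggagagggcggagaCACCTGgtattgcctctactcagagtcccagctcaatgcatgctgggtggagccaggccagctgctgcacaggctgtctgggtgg
Cd3d: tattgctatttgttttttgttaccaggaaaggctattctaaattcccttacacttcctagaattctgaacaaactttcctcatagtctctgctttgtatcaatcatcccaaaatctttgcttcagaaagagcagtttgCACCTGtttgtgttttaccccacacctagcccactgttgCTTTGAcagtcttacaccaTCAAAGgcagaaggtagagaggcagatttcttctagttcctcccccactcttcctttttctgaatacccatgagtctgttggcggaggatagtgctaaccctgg
Cd3e: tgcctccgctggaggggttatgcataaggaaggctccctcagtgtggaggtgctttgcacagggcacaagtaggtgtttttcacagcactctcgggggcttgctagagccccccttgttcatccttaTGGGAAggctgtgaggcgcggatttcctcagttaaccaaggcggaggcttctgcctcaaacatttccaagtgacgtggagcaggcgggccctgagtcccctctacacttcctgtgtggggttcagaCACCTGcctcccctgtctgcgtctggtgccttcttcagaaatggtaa
Ptcra: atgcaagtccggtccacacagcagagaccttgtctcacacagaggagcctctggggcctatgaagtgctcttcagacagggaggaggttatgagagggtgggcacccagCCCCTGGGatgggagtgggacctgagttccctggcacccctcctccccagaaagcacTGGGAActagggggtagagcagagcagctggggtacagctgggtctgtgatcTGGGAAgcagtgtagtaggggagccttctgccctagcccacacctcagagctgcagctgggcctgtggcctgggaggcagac
Blnk: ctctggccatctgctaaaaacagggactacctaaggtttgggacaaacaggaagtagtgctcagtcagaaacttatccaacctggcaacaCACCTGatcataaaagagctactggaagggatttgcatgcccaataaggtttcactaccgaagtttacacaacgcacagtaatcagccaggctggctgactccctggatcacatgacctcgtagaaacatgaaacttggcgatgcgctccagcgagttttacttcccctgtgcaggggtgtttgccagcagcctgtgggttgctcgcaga

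The Cd3g window holds E-box letters 148 and 35 bases before the start. The Cd3d window, whose start lies 1355 bases away on the opposite strand, holds them 112 bases before its start and the Tcf/Lef core at 73 and 54 bases before it. In Cd3e the E-box letters lie just after the start. The Ptcra window shows the Rbpj letters at 84 and 32 bases before the start and the Ebf core letters at 141, and the Blnk window shows an E-box 160 bases before the start. So 4 of the 5 printed windows held the E-box letters, that of Blnk, which fell, among them. The 5 were picked with the results known, so this count is no measure of enrichment. Of all 14369 promoters matched to tested genes, 19.7% held these letters. Over gene groups the share with the E-box letters was 21.2% for genes higher in DN3 and 15.8% for genes lower in DN3, and it was 28.3% for the 219 genes higher by more than 3 and 14.5% for the 463 lower by more than 3. The Ets letters were in 30.9% of genes higher in DN3 and 28.1% of genes lower in DN3, and in 11.9% of the genes higher by more than 3 and 21.8% of those lower by more than 3, against 24.8% of all promoters. The Rbpj letters were in 22.2% of genes higher and 21.3% of genes lower in DN3, against 24.1% of all promoters. In the same order the shares were 11%, 11.9% and 13.7% for Tcf/Lef, 12.5%, 13.4% and 13.6% for Runx, and 17.9%, 18.9% and 16.9% for Ebf. For genes higher and lower by more than 3 they were 21.9% and 23.5% (Rbpj), 15.5% and 12.3% (Tcf/Lef), 16% and 13% (Runx), and 19.6% and 19.7% (Ebf). These shares describe letters in a window and say nothing of binding.

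The kinases and adaptors that carry the T cell receptor signal inside the cell were also higher. Of 22 listed, 19 were measured, and 15 rose and 1 fell (background 9.73% and 16.2%), with a median difference of 2.82. Themis, an adaptor of developing T cells, was at 12.06, 12.35 and 11.67 on the DN3 arrays and at the floor on all CLP arrays (at least 926-fold, adjusted p = 3.18e-19). Skap1, an adaptor that links the receptor to integrins, was at 11.69, 11.68 and 11.45 in DN3, against 2.19, 2.20 and 2.20 in CLP (at least 678-fold, adjusted p = 2.36e-13). Rasgrp1, which activates Ras downstream of the receptor, was at 10.82, 11.27 and 10.82 in DN3 and at the floor in CLP (at least 445-fold, SE 0.89 on the log2 scale, adjusted p = 1.43e-07). For all 3 genes the lowest DN3 array lay more than 8 above the highest CLP array. The mean of its probe sets gave a smaller rise for Rasgrp1, 3.46.

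Other members were present in CLP and increased. Lat, the membrane scaffold of the signalling complex, was at 13.83, 13.59 and 13.67 in DN3, against 8.48, 8.52 and 8.76 in CLP (difference 5.11, SE 0.22, adjusted p = 4.48e-13). Lcp2, its cytosolic partner SLP-76, rose by 2.82 to a DN3 mean of 11.71 (by 4.57 on its most variable probe set), and Prkcq, protein kinase C theta, rose by 3.43. Zap70, the kinase recruited to the phosphorylated chains, was at 7.67, 7.72 and 8.04 in DN3, against 5.23, 3.68 and 5.32 in CLP (difference 3.06, adjusted p = 3.03e-05; 1.90 with the mean of its probe sets). Fyn, a Src family kinase, was the member that fell, at 9.91, 10.33 and 9.81 in DN3, against 10.63, 10.94 and 10.80 in CLP (difference -0.77, adjusted p = 0.0121). That call did not hold after median centring, with the spike-in cluster as a random block, with the mean of its probe sets, or without DN3 replicate 3 or CLP replicate 2. Ctla4, an inhibitory receptor of mature T cells, and Sh2d1a, the adaptor SAP, also rose. Ctla4 averaged 10.93 ± 0.08 in DN3 and 3.00 ± 0.39 in CLP (SD, n = 3 each), and Sh2d1a was at 10.41, 10.35 and 10.31 in DN3, against 2.17, 2.18 and 2.18 in CLP. Cd28, the costimulatory receptor, rose by 1.73 (SE 0.61, adjusted p = 0.0408), a call that was lost when any single array was left out.

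**Figure D3:**
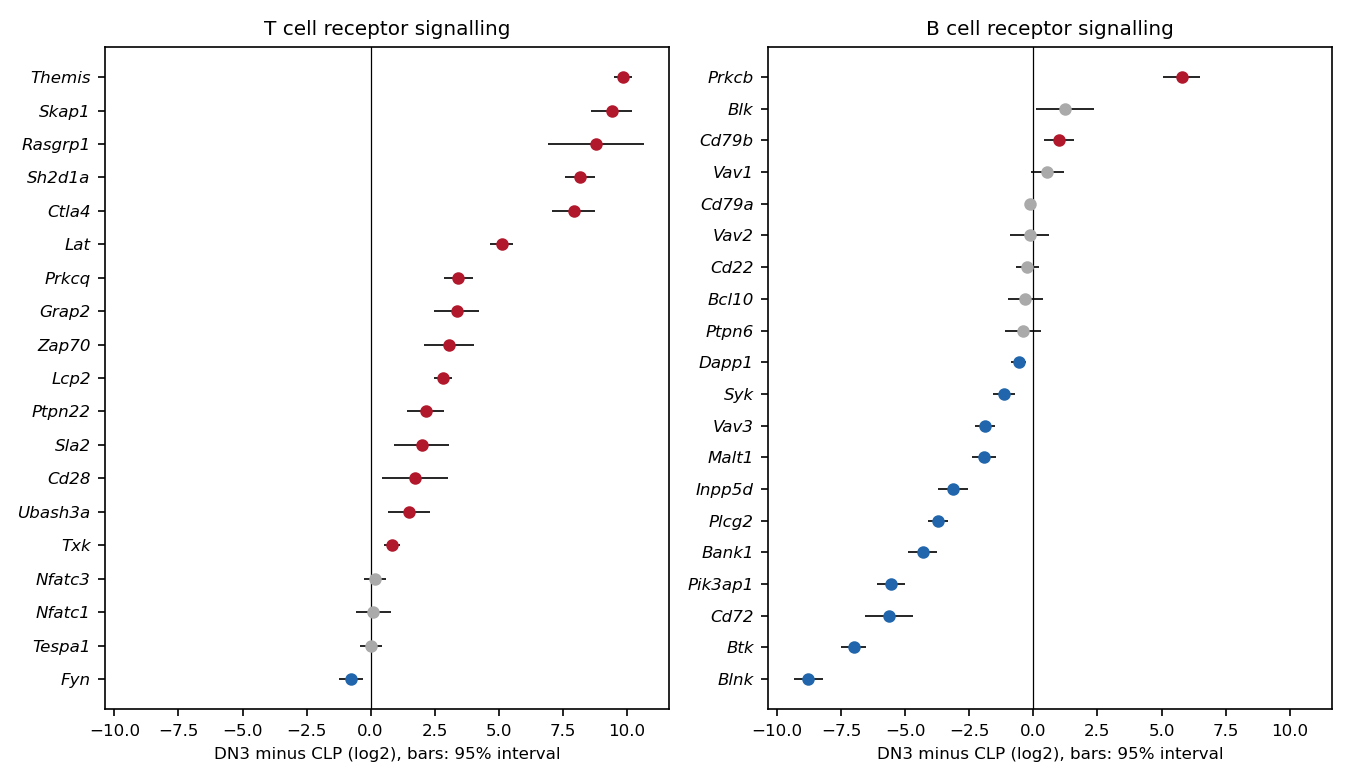
Difference DN3 minus CLP (log2) with its 95% interval for the 19 measured T cell receptor signalling genes and the 20 measured B cell receptor signalling genes, red where higher, blue where lower and grey where the gene did not pass. On the left 15 genes lie above 0 and 1 below, and on the right 2 lie above 0 and 11 below.

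Transcription factors of the T lineage rose in 11 of 18 measured cases and fell in 1 (background 9.73% and 16.2%), with a median difference of 1.14. Bcl11b, a zinc finger factor needed for commitment to the T lineage, was at 14.52, 14.75 and 14.58 in DN3, against 2.56, 2.47 and 2.69 in CLP (at least 4238-fold, SE 0.95 on the log2 scale, adjusted p = 4.76e-09), and 3 of its 3 other probe sets passed in the same direction. Lef1, a factor of the Tcf family, was at 11.48, 11.51 and 10.85 on the DN3 arrays and at the floor on all CLP arrays (at least 553-fold, adjusted p = 1.6e-19). Gata3, which directs T cell fate, was at 10.83, 11.27 and 10.79 in DN3, against 4.84, 4.34 and 4.17 in CLP (difference 6.51, SE 0.31, adjusted p = 2.4e-12). Hivep3, a zinc finger protein, rose by 6.56 and Ets2 by 4.06, or by 2.08 and 2.46 with the mean of their probe sets. Runx1 and Runx3, which share a DNA-binding domain, moved apart. Runx1 was at 12.86, 12.91 and 12.77 in DN3, against 9.55, 9.53 and 9.31 in CLP (difference 3.38, SE 0.24, adjusted p = 1.11e-09; 1.93 with the mean of its probe sets), while Runx3 was at 7.19, 7.77 and 8.68 in DN3, against 11.79, 11.48 and 11.44 in CLP (difference -3.69, SE 0.43, adjusted p = 1.16e-06). With the mean of its probe sets Runx3 fell by 1.85.

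Several factors were high in both populations. Myb, needed for lymphoid and stem cells, did not pass (difference -0.08, 95% interval -0.28 to 0.11). Tcf12, the E protein HEB, was at a DN3 mean of 14.51, against 13.24 in CLP, and rose by 1.26 (adjusted p = 1.38e-05), or by 2.21 with the mean of its probe sets and 4.17 on its most variable one. Ets1 had a DN3 mean of 14.03, against 11.99 in CLP (adjusted p = 0.00175), a call lost with the spike-in cluster as a random block (adjusted p = 0.0708). Satb1, a chromatin organiser, did not pass (difference -0.23, adjusted p = 0.311), and its probe sets disagreed, since their mean gave a rise of 0.61 that passed.

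Notch receptors and targets changed in part of their list, with 5 of 19 measured genes higher and 2 lower (26.3% and 10.5%, background 9.73% and 16.2%) and a median difference of 0.17. The rises were large for a few genes. Notch3, a receptor that is itself a target of Notch signals, was at 13.06, 13.36 and 11.37 in DN3, against 2.34, 2.34 and 2.32 in CLP (at least 1229-fold, adjusted p = 4.31e-14). Dtx1, a ubiquitin ligase of the pathway, was at 12.55, 13.27 and 11.79 in DN3, against 2.94, 2.60 and 3.32 in CLP (difference 9.58, SE 0.27, adjusted p = 8.18e-16; 4.66 with the mean of its probe sets). Hes1, a repressor induced by Notch, was at 11.77, 11.90 and 11.42 in DN3, against 4.67, 4.92 and 4.27 in CLP (difference 7.08, SE 0.32, adjusted p = 9.89e-13). The third DN3 array was the lowest for all 3 genes and still lay far above every CLP array.

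Notch1 and Notch2 were high in both populations. Notch1 was at 14.87, 15.05 and 14.47 in DN3, against 13.67, 13.76 and 13.36 in CLP (difference 1.20, adjusted p = 0.00271; 2.36 with the mean of its probe sets). Notch2 fell by 1.46 to a DN3 mean of 10.93 (adjusted p = 2.37e-05), and fell by 0.73 with the mean of its probe sets. Nrarp and Myc, both known targets, did not pass. Nrarp, a feedback inhibitor, was at 6.33, 6.77 and 6.12 in DN3, against 6.12, 6.04 and 5.64 in CLP, and Myc was at 12.81, 13.25 and 11.79 in DN3, against 10.90, 12.33 and 11.71 in CLP (difference 0.97, adjusted p = 0.0905; it passed without DN3 replicate 3). Rbpj, the DNA-binding partner of all Notch receptors, differed by 0.17, with a 95% interval of -0.19 to 0.54. Hey1, Jag1 and Maml2 were near the floor in both populations. Maml1, a coactivator, rose by 0.58 (adjusted p = 0.0357) and Adam10, the protease that cuts Notch at the surface, fell by 0.63 (adjusted p = 0.00617). The Maml1 call was lost in 8 of 20 alternative fits, and the Adam10 call with the mean of its probe sets (adjusted p = 0.132) and on its most variable probe set (adjusted p = 0.34).

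**Figure D4:**
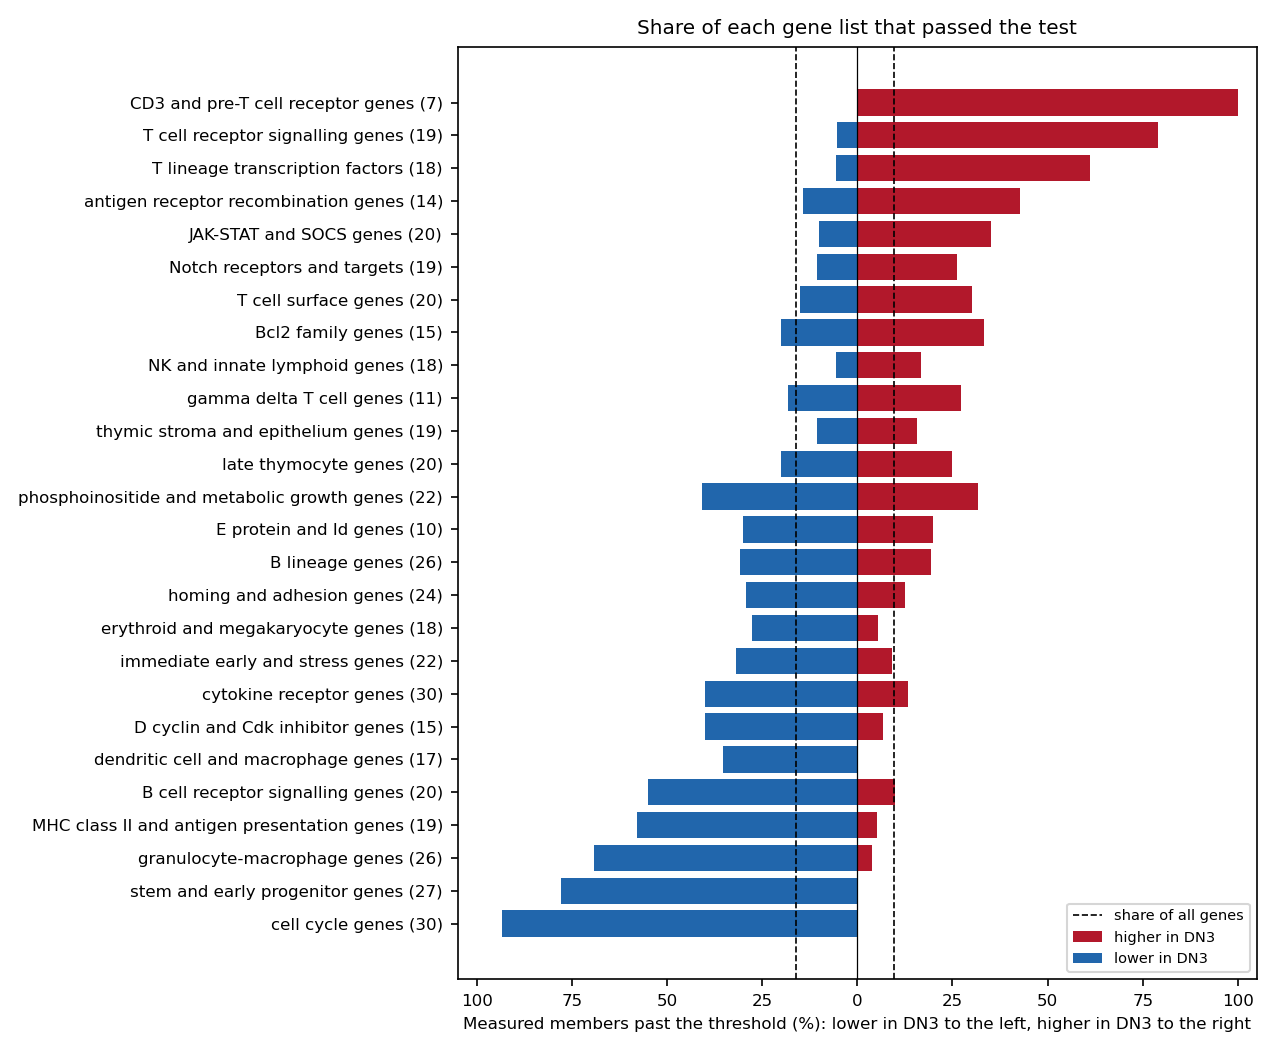
Percent of measured members (number in brackets) that passed the test, with those higher in DN3 to the right in red and those lower in DN3 to the left in blue, and dashed lines at the shares of all genes, 9.73% and 16.2%. The CD3 and pre-T cell receptor list lies wholly to the right and the cell cycle list reaches 93.3% on the left.

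Surface genes used to stage thymocytes followed the DN3 label. Il2ra, the CD25 antigen that defines the DN2 and DN3 stages, was at 13.31, 13.42 and 12.76 on the DN3 arrays and at the floor on all CLP arrays (at least 2037-fold). Cd44, which DN3 cells lack, was at 3.87, 4.42 and 5.33 in DN3, against 13.96, 13.91 and 13.67 in CLP (difference -9.30; -5.82 with the mean of its probe sets). Kit was at 9.72, 10.09 and 10.03 in DN3, against 12.01, 11.75 and 11.48 in CLP, and Il7r, the interleukin 7 receptor, was at 12.38, 12.96 and 12.51 in DN3, against 13.20, 13.19 and 13.30 in CLP. These genes are commonly used to sort the populations, so their values serve as a check of the labels. Thy1, the classical thymocyte antigen, was at 13.45, 13.40 and 13.48 in DN3, against 5.27, 4.49 and 4.83 in CLP (difference 8.58, SE 0.45, adjusted p = 8.66e-12). Ly6d, which splits CLP into T-competent and B-biased cells, was at 12.04, 12.05 and 12.58 in DN3, against 7.80, 7.06 and 7.63 in CLP (difference 4.73, SE 0.19, adjusted p = 1.62e-13). Over the whole list of T cell surface genes, 6 of 20 rose and 3 fell (30% and 15%, background 9.73% and 16.2%).

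The coreceptor genes of later thymocytes stayed at or close to the floor. Cd4 and Cd2 were at or next to the floor on all 6 arrays, Cd8b1 was at 2.38, 2.17 and 2.17 in DN3 against the floor in CLP, and Cd8a was at 3.54, 3.18 and 3.37 in DN3, against 3.18, 3.18 and 3.18 in CLP. Cd5, a regulator that follows pre-T cell receptor signals, was at 6.29, 7.13 and 6.68 in DN3, against 5.83, 6.08 and 5.90 in CLP, and did not pass (difference 0.76, adjusted p = 0.0801). Of 20 measured genes of the late thymocyte list, 5 rose and 4 fell (25% and 20%, background 9.73% and 16.2%). The list was drawn up with earlier results of these data known, so this count is no measure of enrichment. Dgkeos was at 12.27, 11.93 and 10.68 in DN3, against 2.19, 2.20 and 2.17 in CLP (at least 692-fold higher). Aqp11, a water channel, was at 13.69, 13.47 and 13.39 in DN3, against 4.23, 4.13 and 4.23 in CLP, and Arpp21 rose by 4.07. The egress regulator Klf2 fell by 3.34, with the third DN3 array highest of its group at 6.13.

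The recombination machinery was present in both populations and was stronger in DN3 for part of its members, with 6 of 14 measured genes higher and 2 lower (background 9.73% and 16.2%) and a median difference of 0.53. Rag1, a subunit of the recombinase, was at 15.37, 15.39 and 14.23 in DN3, against 10.82, 10.47 and 9.59 in CLP (difference 4.70, SE 0.43, adjusted p = 3.46e-08). Rag2, the other subunit, was at 11.59, 10.88 and 9.96 in DN3, against 9.29, 9.72 and 9.97 in CLP. Its arrays overlapped, since the third DN3 array lay just below the highest CLP array, and its rise of 1.15 stood at the threshold (adjusted p = 0.04995). It passed in 8 of 20 alternative fits, and without DN3 replicate 1 the difference was 0.76. The Rag1 and Rag2 signals come from different probe sets and are not set against each other.

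Among the joining factors, Lig4, the ligase of the end-joining pathway, was at 11.61, 11.83 and 11.48 in DN3, against 6.28, 6.99 and 6.69 in CLP (difference 4.99, SE 0.30, adjusted p = 8.58e-11). Xrcc5 and Xrcc6, which form the Ku ring on broken ends, rose by 1.27 and 0.99, and Xrcc4, the partner of Lig4, rose by 0.59. With the spike-in cluster as a random block all 3 calls were lost, at adjusted p = 0.15 for Xrcc5, 0.25 for Xrcc6 and 0.354 for Xrcc4. Poll, a gap-filling polymerase, fell by 2.91 (adjusted p = 1.17e-05). Dntt, the transferase that adds untemplated bases at joints, was high in both, at 13.79, 13.81 and 13.31 in DN3 and 13.98, 14.09 and 14.11 in CLP. The difference of -0.42 did not pass (95% interval -0.91 to 0.07). Of its 2 other probe sets 1 passed as higher in DN3. The third DN3 array was the lowest of its group for Rag1, Rag2 and Dntt.

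B lineage genes showed no common direction. Of 26 measured, 5 rose and 8 fell (19.2% and 30.8%, background 9.73% and 16.2%), and 8 were near the floor in both populations. Blnk, the adaptor of the pre-B cell receptor, was at the floor on all 3 DN3 arrays, against 10.91, 11.07 and 10.88 on the CLP arrays (at least 440.2-fold lower in DN3, adjusted p = 3.54e-15). Ebf1, the factor that opens the B cell program, was at the floor on all DN3 arrays, against 7.64, 6.98 and 5.02 on the CLP arrays (at least 20.7-fold lower, adjusted p = 1.01e-08; -2.77 on the log2 scale with the mean of its probe sets). Its SE of 0.37 pools populations at or next to the floor, whereas the CLP arrays had an SD of 1.36. Pax5 and Cd79a, which follow Ebf1 in committed B cells, were near the floor on all 6 arrays. Ighm, transcribed from the unrearranged heavy chain locus in progenitors, was at 11.79, 12.12 and 11.52 in DN3, against 12.32, 12.91 and 12.59 in CLP (difference -0.80, adjusted p = 0.0406). The Ighm call passed in 10 of 20 alternative fits, and quantile normalization and median centring were among those in which it was lost. Of its 10 other probe sets 1 passed in the same direction.

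Of the B lineage genes that were higher in DN3, Bst1 and Spib are also known from other cells. Bst1, a surface enzyme of B cell progenitors, marrow stroma and early thymocytes, was at 11.47, 11.55 and 10.90 in DN3, against 2.70, 2.17 and 2.17 in CLP (at least 499-fold, adjusted p = 3.72e-17). Spib, an Ets factor of B cells, plasmacytoid dendritic cells and pre-T cells, was at 10.13, 10.85 and 8.89 in DN3, against 3.43, 2.45 and 2.60 in CLP (difference 7.13, SE 0.34, adjusted p = 1.98e-12). Ralgps2 rose by 3.65, Pou2af1 by 1.55 and Cd79b by 1.01. The Pou2af1 values of 2.80, 4.15 and 4.31 in DN3 lay not far above the floor. The Cd79b call was lost with the spike-in cluster as a random block, and the Cd79b and Pou2af1 calls in the fit to the 6 arrays alone. Vpreb1, of the surrogate light chain, was at 7.88, 7.61 and 7.22 in DN3, against 9.20, 8.63 and 8.45 in CLP, and did not pass (adjusted p = 0.141).

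Signalling genes of the B cell receptor fell in 11 of 20 measured cases and rose in 2 (55% and 10%, background 16.2% and 9.73%), with a median difference of -0.86. Btk, the Tec family kinase of B and myeloid cells, was at 3.63, 3.75 and 4.31 in DN3, against 10.86, 10.82 and 11.07 in CLP (difference -7.02, SE 0.23, adjusted p = 7.16e-15). Pik3ap1, an adaptor for phosphoinositide 3-kinase, was at 2.37, 2.66 and 2.83 in DN3, against 8.12, 8.08 and 8.34 in CLP (at least 47.3-fold lower, adjusted p = 1.43e-12; -2.80 on the log2 scale with the mean of its probe sets). Plcg2, the phospholipase of B cells, fell by 3.74 and Inpp5d, the phosphatase SHIP, by 3.14. Cd72 was at 3.57, 4.09 and 6.27 in DN3, against 10.09, 10.32 and 10.41 in CLP, with the third DN3 array closest to CLP (difference -5.63). The largest rise of the list was Prkcb, protein kinase C beta, at 13.41, 13.51 and 12.63 in DN3, against 7.37, 7.37 and 7.44 in CLP (difference 5.79, SE 0.35, adjusted p = 7.47e-11). Syk fell by 1.16, but its probe sets disagreed, and the probe set with the largest variance gave a rise of 2.02.

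E proteins and their antagonists set the balance between progenitor and lymphocyte programs. Of 10 measured, 2 rose, Id3 and the Tcf12 given above, and 3 fell (20% and 30%, background 9.73% and 16.2%). Id3, an inhibitor of E proteins induced by receptor signals, was at 7.16, 8.29 and 8.21 in DN3, against 2.17, 2.28 and 2.18 in CLP (at least 51.1-fold higher, adjusted p = 1.36e-11), with the first DN3 array the lowest. Id2, the inhibitor of innate lymphoid cells, did not pass (difference -0.34, adjusted p = 0.619). Tcf3, which encodes E2A, was at 11.43, 11.45 and 10.87 in DN3, against 10.34, 10.56 and 10.49 in CLP and did not pass (adjusted p = 0.112), and Tcf4, which encodes E2-2, fell by 1.84 (adjusted p = 3.79e-06; by 1.09 with the mean of its probe sets). Lyl1 was at 2.25, 2.25 and 3.49 in DN3, against 12.30, 12.51 and 12.37 in CLP (difference -9.73, SE 0.30). Tal1 was at 2.85, 2.73 and 2.20 in DN3, against 9.09, 9.31 and 9.07 in CLP (at least 94.4-fold lower, adjusted p = 8.53e-16).

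Stem and early progenitor genes fell in 21 of 27 measured cases and rose in 0 (77.8%, background 16.2%), with a median difference of -4.32. Cd34, a surface sialomucin of progenitors, was at 2.56, 2.17 and 2.69 in DN3, against 13.66, 13.31 and 13.37 in CLP (at least 2009-fold lower, adjusted p = 4.31e-17). Lmo2, a bridging factor that can cause T cell leukaemia when it stays on, was at 2.59, 2.58 and 3.00 in DN3, against 12.65, 12.70 and 12.81 in CLP (at least 1023-fold lower, adjusted p = 1e-17). Flt3, the cytokine receptor of multipotent and lymphoid progenitors, was at 3.51, 3.69 and 3.51 in DN3, against 13.60, 13.56 and 13.58 in CLP (difference -10.01, SE 0.40, adjusted p = 1.65e-13). For none of the 3 genes did an array of either population come near the other.

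Homeobox and associated factors fell with them. Hhex was at 2.22, 2.87 and 4.47 in DN3, against 12.003, 11.83 and 11.87 in CLP (difference -8.72). Meis1 fell by 8.00 and Hoxa9 by 7.44, or by 4.66 and 3.85 with the mean of their probe sets, and Hoxa9 kept a DN3 mean of 6.52. Mef2c, a factor of lymphoid and myeloid progenitors, was at 7.20, 7.10 and 6.90 in DN3, against 13.57, 13.29 and 13.42 in CLP (difference -6.36, SE 0.19, adjusted p = 2.7e-15). Spi1, which encodes PU.1 and stands against T cell commitment, was at 2.66, 2.45 and 2.54 in DN3, against 8.69, 8.84 and 8.93 in CLP (at least 77-fold lower, adjusted p = 1.39e-11). Hmga2, a chromatin protein of fetal and young stem cells, had the same value of 3.14 on all 3 DN3 arrays, against 11.18, 11.08 and 10.54 in CLP (at least 222-fold lower). Bcl11a, the paralog of Bcl11b, moved against it, with 8.54, 9.62 and 8.81 in DN3 and 13.21, 13.22 and 12.99 in CLP (difference -4.15, SE 0.22, adjusted p = 1.57e-11; -2.24 with the mean of its probe sets). Kit fell by 1.80 and Sox4, high in both, did not pass (difference -0.46).

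Granulocyte-macrophage genes fell in 18 of 26 measured cases and rose in 1 (69.2% and 3.85%, background 16.2% and 9.73%), with a median difference of -2.77. Their mean level was 4.72, 4.69 and 4.87 on the DN3 arrays, against 8.34, 8.26 and 8.42 on the CLP arrays. Mpo, myeloperoxidase, was at 2.52, 2.59 and 6.36 in DN3, against 14.31, 14.00 and 14.13 in CLP (difference -10.32, SE 0.61, adjusted p = 5.43e-11). The third DN3 array lay well above the others for Mpo, and without it the gene fell by 11.59. Ctsg, a granule protease, was at 2.35, 2.28 and 2.59 in DN3, against 11.29, 11.63 and 11.71 in CLP (at least 562-fold lower). Csf1r, the receptor of macrophage growth factor, was at 2.85, 2.83 and 2.83 in DN3, against 12.45, 11.88 and 12.34 in CLP (at least 669-fold lower). Irf8, a factor of dendritic and B cells, was at 8.61, 8.15 and 6.53 in DN3, against 14.51, 14.68 and 14.51 in CLP (difference -6.80, SE 0.37, adjusted p = 1.51e-11). Tyrobp, a signalling adaptor of myeloid and natural killer cells, fell by 8.24. Cebpa, the factor of granulocyte fate, was at the floor in DN3 and low in CLP, at 4.81, 4.06 and 4.75. Elane, the neutrophil elastase, did not exceed 3.53 on any of the 6 arrays. Gfi1, a repressor with roles in both granulocytes and early T cells, was the member that rose, at 13.15, 13.27 and 12.64 in DN3 and 10.45, 10.54 and 10.38 in CLP (difference 2.56, SE 0.28, adjusted p = 4.4e-07).

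Antigen presentation genes fell in 11 of 19 measured cases and rose in 1 (57.9% and 5.26%, background 16.2% and 9.73%). Class II genes, which display peptides to CD4 cells, held most of the large falls. H2-Aa was at 2.94, 2.17 and 3.603 in DN3, against 10.11, 11.02 and 10.21 in CLP (difference -7.54, SE 0.58, adjusted p = 2.85e-09; -3.40 with the mean of its probe sets). Cd74, the invariant chain, was at 3.04, 3.04 and 3.65 in DN3, against 8.25, 9.02 and 8.87 in CLP (difference -5.47), and H2-Ob, a chain of the peptide exchange inhibitor, fell by 6.90. H2-Ab1 was uneven in DN3, at 4.36, 5.72 and 7.56, against 9.67, 9.83 and 9.42 in CLP, and its fall did not pass in the fit to the 6 arrays alone (adjusted p = 0.0543). Class I genes stayed high in both. H2-K1 was at 13.07, 12.83 and 13.12 in DN3, against 13.73, 13.70 and 13.60 in CLP (difference -0.67, adjusted p = 0.0299), a fall that was lost with median centring and when any array other than DN3 replicate 3 was left out. Tapbp, the class I loading chaperone, rose by 1.03, but its other probe set did not show the rise. Of 17 measured dendritic cell and macrophage genes, 6 fell and 0 rose (35.3% lower, background 16.2%). Siglech, of plasmacytoid dendritic cells, was at the floor in DN3 and at 5.67, 4.30 and 5.81 in CLP. Itgax fell to 2.17, 2.61 and 2.61 in DN3, against 7.18, 7.05 and 7.39 in CLP.

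Cytokine receptors fell in 12 of 30 measured cases and rose in 4 (40% and 13.3%, background 16.2% and 9.73%). Il1r1, the interleukin 1 receptor, was at 2.63, 3.25 and 3.25 in DN3, against 9.93, 9.94 and 9.75 in CLP (difference -6.83, SE 0.35, adjusted p = 6.14e-12; -3.41 with the mean of its probe sets). Il18r1 was at the floor on all DN3 arrays, against 7.67, 8.38 and 7.83 in CLP (at least 55.3-fold lower), and its partner Il18rap fell to 2.77, 2.77 and 2.64 in DN3, against 12.09, 12.17 and 11.74 in CLP. Il10rb fell by 5.41 and Il4ra by 4.47, or by 3.56 and 1.82 with the mean of their probe sets. Crlf2, the receptor of thymic stromal lymphopoietin, was at 10.36, 10.69 and 10.18 in DN3, against 11.92, 12.06 and 12.16 in CLP (difference -1.64), while Il7r, with which it pairs, did not pass. For Il7r the difference was -0.61 with a wide 95% interval of -2.11 to 0.89. Ifngr1 rose by 1.98, Il27ra by 2.05 and Tgfbr1 by 1.48. The Ifngr1 call was lost with the spike-in cluster as a random block (adjusted p = 0.0664) and the Tgfbr1 call in the fit to the 6 arrays alone (adjusted p = 0.0786).

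Signal transducers below these receptors rose in 7 of 20 measured cases and fell in 2 (35% and 10%, background 9.73% and 16.2%). Socs3, a feedback inhibitor of cytokine receptors, was at 12.11, 12.39 and 11.50 in DN3, against 8.06, 7.33 and 8.10 in CLP (difference 4.17, SE 0.63, adjusted p = 3.14e-05). Jak1 rose by 1.23 (by 2.65 on its most variable probe set), and Stat5a rose to a DN3 mean of 10.35, against 8.85 in CLP, and both calls were lost with the spike-in cluster as a random block. Jak3, the kinase of the common gamma chain, was at 6.10, 6.48 and 6.59 in DN3, against 8.46, 7.81 and 8.19 in CLP (difference -1.76, adjusted p = 0.0106), and was lost in the same fit. Of homing and adhesion genes 3 of 24 rose and 7 fell (12.5% and 29.2%, background 9.73% and 16.2%). Itgae, the integrin that binds epithelial cadherin, was at 7.34, 7.69 and 4.90 in DN3, against 2.50, 2.50 and 2.60 in CLP (at least 17.3-fold higher), while Itgb7, its partner chain, fell to 3.63, 3.89 and 3.63 in DN3, against 8.87, 7.58 and 8.74 in CLP (difference -4.68, SE 0.35, adjusted p = 2.06e-09). Ccr7, a receptor for entry and egress, was near the floor in DN3, against 7.02, 6.90 and 6.55 in CLP. Ccr9, which draws progenitors to the thymus, was at 12.35, 12.21 and 11.31 in DN3, against 10.40, 10.66 and 10.27 in CLP (difference 1.51, adjusted p = 0.048), a call lost when any array other than DN3 replicate 3 was left out. Its DN2 mean was 4.38.

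Cell cycle genes were lower in DN3 almost throughout, with 28 of 30 measured genes lower and 0 higher (93.3%, background 16.2%) and a median difference of -2.39. The largest falls were in genes of mitosis. Cenpf, a kinetochore protein, was at 6.33, 4.80 and 6.11 in DN3, against 11.59, 11.20 and 11.14 in CLP (difference -5.56, SE 0.30, adjusted p = 1.37e-11; -2.05 with the mean of its probe sets). Aurkb, the kinase of the chromosomal passenger complex, was at 7.49, 6.80 and 6.96 in DN3, against 11.98, 11.81 and 11.68 in CLP (difference -4.74). Cdk1, the mitotic kinase, was at 7.81, 7.52 and 7.97 in DN3, against 12.10, 12.09 and 12.27 in CLP (difference -4.39, SE 0.23, adjusted p = 1.13e-11). Mki67, a marker of cycling cells, stayed well above the floor at 11.07, 9.90 and 10.68 in DN3, against 14.41, 14.13 and 14.14 in CLP (difference -3.68).

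Genes of DNA replication fell by smaller amounts on the probe sets used. Mcm5, of the replicative helicase, fell by 0.996 (by 3.47 on its most variable probe set) and Pcna, the sliding clamp, by 0.57, and the 5 Mcm genes that passed fell by 0.57 to 0.996. The Pcna call passed in 10 of 20 alternative fits, and quantile normalization and median centring were among those in which it was lost. Mcm7 and Tyms did not pass (differences -0.29 and -0.29). Of 15 genes for D cyclins, their kinases and inhibitors, 1 rose and 6 fell (6.67% and 40%, background 9.73% and 16.2%). Ccnd1 was at 2.78, 2.75 and 3.43 in DN3, against 8.91, 8.85 and 8.88 in CLP (difference -5.89, SE 0.44, adjusted p = 2.21e-09). Ccnd2 and Ccnd3, the D cyclins of lymphocytes, did not pass (differences 0.42 and -0.30), but 1 of the 2 other probe sets of Ccnd3 passed as higher in DN3. Cdkn2c, an inhibitor of Cdk4 and Cdk6, fell by 2.76. Cdk6 rose by 0.42, but its probe sets disagreed, and the probe set with the largest variance gave -1.97.

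Survival and growth genes were mixed. Of 15 measured Bcl2 family genes, 5 rose and 3 fell (background 9.73% and 16.2%). Bmf, a killer protein of the BH3-only class, was at 12.15, 11.25 and 9.95 in DN3, against 6.71, 7.05 and 7.65 in CLP (difference 3.98, SE 0.56, adjusted p = 1.27e-05), with the arrays of DN3 spread widely, and with the mean of its probe sets the rise was 1.37. Bcl2l11, which encodes Bim, rose by 1.10, while Bid fell by 1.30. The Bcl2l11 call was lost in the fit to the 6 arrays alone, with the spike-in cluster as a random block and without DN3 replicate 1 or CLP replicate 3, and the rise was 3.64 on its most variable probe set. Bcl2 was at 12.43, 11.25 and 11.58 in DN3, against 11.32, 12.15 and 11.13 in CLP, and did not pass. Of its 4 other probe sets 1 passed as lower in DN3. Of 22 genes of phosphoinositide signalling and metabolic growth, 7 rose and 9 fell (31.8% and 40.9%, same background). Pik3cd, the lymphocyte catalytic subunit, rose by 1.69 and Akt2 by 1.06, or by 0.65 and 0.59 with the mean of their probe sets, both lost with the spike-in cluster as a random block. The nutrient transporters Slc7a5 and Slc2a1 fell by 1.87 and 1.12, also lost in that fit, at adjusted p = 0.0602 for Slc7a5 and 0.181 for Slc2a1.

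Genes of other cell types were measured in both populations, and their part in the results was not tested. Of 18 measured natural killer and innate lymphoid genes, 12 were at or next to the floor in both populations. Of the 18, 3 rose and 1 fell (16.7% and 5.56%, background 9.73% and 16.2%). Gzma, a granule protease, was at 13.15, 12.59 and 12.75 on the DN3 arrays and at the floor on all CLP arrays (at least 1617-fold, SE 0.75 on the log2 scale, adjusted p = 8.23e-10), while Ncr1, Eomes, Tbx21 and Klrk1 were at the floor on all 6 arrays. Klrd1 went the other way, with the same value of 3.40 on all DN3 arrays, against 11.45, 11.10 and 11.42 in CLP. Of 19 measured genes of thymic stroma and epithelium, 3 rose and 2 fell (15.8% and 10.5%, same background). The defining keratins Krt8 and Krt14 were at the floor on all 6 arrays. Epcam, an epithelial adhesion protein, was at 10.67, 10.62 and 10.55 in DN3, against 2.21, 2.26 and 2.39 in CLP (at least 322-fold higher, adjusted p = 9.32e-15; 4.41 on the log2 scale with the mean of its probe sets). Cdh1, E-cadherin, was at 10.14, 10.39 and 9.45 in DN3, against 2.28, 2.22 and 2.22 in CLP (at least 216-fold higher, adjusted p = 8.71e-13). Krt18, another keratin of that list, fell by 3.00, and the third rise, Psmb11, was one of 0.05.

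Of 18 measured red cell and platelet genes, 1 rose and 5 fell (5.56% and 27.8%, background 9.73% and 16.2%). Car2, carbonic anhydrase, was at 2.62, 3.96 and 2.95 in DN3, against 11.41, 11.35 and 11.16 in CLP (difference -8.13, SE 0.31). Gata1 was low in both, at 5.51, 6.65 and 5.77 in DN3 and 3.69, 3.69 and 3.97 in CLP, and rose by 2.20 (adjusted p = 0.00022). Of 11 measured genes of gamma delta T cells, 3 rose (Id3, Maf and Sox13) and 2 fell (Icos and Etv5). These were 27.3% and 18.2% of the list, against the same background. The 11 do not include Trgv4, which the list holds under the name Tcrg-V4 and which was not matched by that name. Probe sets named for the T cell receptor gamma segments Trgv1 and Trgv4 were among the 15 largest rises. Trgv1 was at 13.97, 13.65 and 13.70 in DN3, against 2.23, 2.37 and 2.23 in CLP, and Trgv4 was at 12.40, 12.69 and 12.41 in DN3, against 2.20, 2.20 and 2.62 in CLP (at least 2891-fold and 1144-fold). Some gamma segments are near-identical copies, and which segment each signal belongs to was not tested.

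Immediate early and stress genes split the DN3 arrays. Their mean level was 7.25, 7.44 and 8.99 on the DN3 arrays, against 8.88, 8.71 and 8.63 on the CLP arrays. Fos was at 4.19, 3.00 and 12.20 in DN3, against 14.42, 14.19 and 13.78 in CLP (difference -7.67, SE 1.53, adjusted p = 0.000613), and without the third DN3 array it fell by 10.53. In a fit to the 6 arrays alone it did not pass (adjusted p = 0.157). Hspa1a, a heat shock protein with a near-identical copy Hspa1b, was at 2.71, 2.75 and 10.39 in DN3, against 5.59, 5.07 and 4.67 in CLP and did not pass. Zfp36, which shortens the life of messenger RNAs, fell on all DN3 arrays, with 4.36, 4.68 and 5.16 in DN3 and 11.33, 10.93 and 10.57 in CLP (difference -6.21, SE 0.61, adjusted p = 9.52e-08). Btg2, an inhibitor of cell division, rose to 12.37, 12.01 and 11.65 in DN3, against 8.67, 8.15 and 8.57 in CLP, and Egr2, a factor induced by receptor signals, to 5.52, 6.26 and 6.21 in DN3, against 2.38, 2.30 and 2.39 in CLP. The Egr2 call was lost with the spike-in cluster as a random block. Without DN3 replicate 3, 2 genes of the 22 rose and 9 fell, against 2 and 7 with it (9.09% and 31.8%, background 9.73% and 16.2%).

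By size alone, several genes outside the lists ranked among the 15 largest rises. Mpzl2, an adhesion protein, was at 13.39, 13.59 and 13.15 in DN3, against 2.27, 2.30 and 2.30 in CLP (at least 2176-fold). Khdc1a, Slc5a9 and Tenm1 were at the floor on all CLP arrays. In DN3, Khdc1a was at 13.22, 12.72 and 11.68. Slc5a9, a sugar transporter, was at 12.80, 12.41 and 11.63 in DN3, and Tenm1, a teneurin, at 11.90, 12.06 and 11.23. For Slc5a9 3 of 3 other probe sets passed in the same direction. Among the 15 largest falls were Mpeg1, a pore-forming protein of phagocytes, and Adgrl4, an adhesion receptor first known from endothelium. Mpeg1 was at 2.38, 2.39 and 2.42 in DN3, against 13.83, 13.58 and 13.49 in CLP (at least 2417-fold lower, adjusted p = 1.64e-11). Adgrl4 was at the floor on all DN3 arrays, against 13.04, 13.05 and 13.06 in CLP (at least 1886-fold lower, adjusted p = 1.74e-15). Cd244a, Gcnt2, Mn1 and Bex6 completed the falls not described above, with differences of -9.73, -9.15, -9.27 and -9.94. With the mean of its probe sets Gcnt2 gave -2.63.

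Set beside these, a large part of the transcriptome differed little. Among 8468 genes above the median level in both populations, 3942 (46.6%) had a 95% interval of the difference within 1 on either side of 0. Among genes at 12 or more in both, the narrowest intervals were those of Eif5a, a translation factor, at 15.48, 15.52 and 15.16 in DN3 and 15.43, 15.42 and 15.45 in CLP (interval -0.17 to 0.08), and Rps29, a ribosomal protein, at 16.26, 16.21 and 15.92 in DN3 and 16.14, 16.16 and 16.15 in CLP (interval -0.17 to 0.13). Gapdh, of glycolysis, was at 14.59, 14.74 and 14.45 in DN3 and 14.60, 14.57 and 14.59 in CLP.

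The levels on the DN1 and DN2 arrays are set between the endpoints as a description, with no test of the steps. All DN1 and DN2 arrays shared a poly-A spike-in cluster that held no CLP or DN3 array. For the steps from CLP to DN1 and from DN2 to DN3, sample preparation and stage therefore cannot be told apart. Of the 1770 genes higher in DN3, 63.9% made their largest step between DN2 and DN3, 26.3% between CLP and DN1 and 9.83% between DN1 and DN2. Of the 2953 lower genes, 44.5% made it between CLP and DN1 and 43.5% between DN2 and DN3. The DN1 and DN2 means lay in stage order between those of CLP and DN3 for 25.7% of the higher and 27.0% of the lower genes. With only the arrays on which Xist was near the floor, 1 of DN1 and 1 of DN2, the shares were 60.3%, 25.6% and 14.1% for higher genes, and 46.1% and 42.7% for the same steps of lower genes.

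Named genes followed different courses. Cd3g had means of 2.17 in CLP, 3.39 in DN1, 10.19 in DN2 and 14.33 in DN3, whereas Ptcra had 2.22, 2.32, 2.94 and 12.81 in the same order. Lef1 also appeared at the last step, with 2.17 in DN2 and 11.28 in DN3. Gata3 and Hes1 were already at 8.31 and 10.25 in DN1, and Trat1 was higher in DN2, at 11.62, than at the endpoint. Bcl11b was at 5.60 ± 3.23 in DN1 (SD, n = 3), where its arrays differed widely, and at 13.91 ± 0.14 in DN2.

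The losses were also staggered. Blnk was at 2.17 in DN1, so its whole fall came at the first step. Flt3 was at 10.70 in DN1 and 4.47 in DN2, whereas Lyl1 was still at 10.46 and Mpo at 11.31 in DN2. Irf8 had a mean of 8.37 in DN1 and 7.76 in DN3. Of the 28 cell cycle genes that were lower in DN3, 25 made their largest fall between DN2 and DN3, also with only the arrays on which Xist was near the floor, and the mean of Cdk1 was 12.15 in CLP, 11.25 in DN1, 12.03 in DN2 and 7.77 in DN3.

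**Figure D5:**
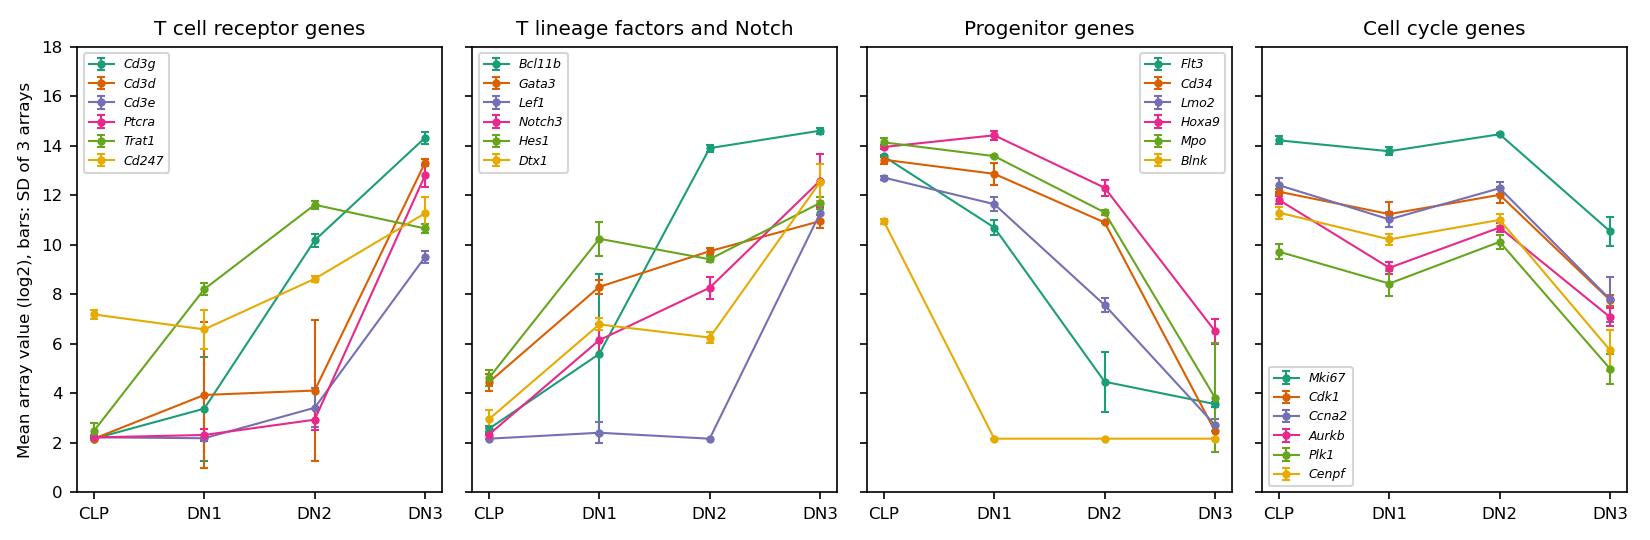
Mean array value (log2) with its SD (n = 3 arrays) of 24 genes in CLP, DN1, DN2 and DN3. Cd3g and Bcl11b are high by DN2 while Cd3e, Ptcra and Lef1 appear in DN3, Blnk is at the floor from DN1 on, and the 6 cell cycle genes drop after DN2.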

How the data were processed

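The values are log2 signals per probe set deposited by the authors as one table of 26 Affymetrix arrays; per the labels, Trizol was used for the RNA and biotin for the label. Background correction, normalization and summary are not given in the sources used here. Of 45101 probe sets, 34958 had 1 gene symbol in the platform annotation, 932 several and 9211 none. Each gene was read from its brightest probe set, by the mean of all arrays (18194 genes). DN3 and CLP were compared with limma 3.58.1 in R 4.3.3 (lmFit and eBayes, one term per population, two-sided, Benjamini-Hochberg over all genes), which was tested on simulated data. Named genes were the 15 largest rises and 15 largest falls without overlap between arrays, list members, label checks and 10 genes high and alike. Members and lists were chosen with earlier results of these data known. Single control values used exact permutation tests. Alternatives covered samples, normalization, dim-gene filters, probe sets, variance model, batch and left-out arrays; 2 were chosen after seeing the data, the fit without DN1 and DN2 arrays and the stage steps over arrays with Xist near the floor. Replicate numbers were not taken as pairs, since the labels do not say that they mark a shared animal or day. Same-numbered DN3 and CLP arrays deviated together by correlations of -0.04, 0.10 and 0.05 over 9543 genes, which cannot settle whether they are paired.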

Additional observations from a re-analysis of the deposited data

How the results depend on the processing

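Of 196 named genes 163 passed, and 102 of these passed in every alternative fit in which they were tested (20 fits, or 19 for Fcrla and Cebpa). Leaving out 1 array in turn gave 1487 to 2150 higher genes and 2550 to 2848 lower genes, 4167 to 4700 in all, with the most higher and fewest lower genes without DN3 replicate 3. The fit to the 6 arrays alone gave 1175 higher genes and array weights gave 3121. The labels do not say that same-numbered DN3 and CLP arrays are paired. The replicate block gave 561 higher and 1311 lower genes (1872 in all) and ended 53 calls of named genes. The spike-in cluster as a random block (estimated correlation 0.43) gave 910 higher and 1908 lower genes (2818 in all) and ended 30 calls. Every probe set tested on its own gave 4699 higher and 4912 lower of 45037 (9611 in all). Both directions and their total stayed within 1.5 times the reported counts under quantile normalization, median centring, both filters on dim genes, other choices of probe set, the trended robust prior, the 3' to 5' covariate, the raised floor and the fit without DN1 and DN2 arrays. Signs turned only with the choice of probe set: the mean of probe sets gave 0.61 for Satb1 and -0.27 for Cdk6, and the probe set with the largest variance gave 2.02 for Syk, 1.07 for Sox4, -0.19 for Tapbp, -1.97 for Cdk6 and -0.0715 for Pik3cd. Among values that passed in neither fit, 32 changed sign, in 16 genes. The cause of these changes was not tested. The number of arrays, 3 per population, limits the precision, and the signal floor limits folds of dim genes to lower bounds.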

Other observations

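Some genes were well above the floor in 1 population of the series and near it on every array of the other populations. They were picked out after their values were seen and are given as a description with no test. DN3 had 39 such genes, CLP 6, GMP 28, CMP 2, MPPFL- and MPPFL+ 1 each, DN2 1 and DN1 0. In DN3 they included Slc5a9, a sugar transporter, at 12.28 ± 0.59 (SD, n = 3), with no array of another population above 2.17, and Lef1, the Tcf family factor, at 11.28 ± 0.37, with no other array above 2.89. Kcna2, a potassium channel, was at 10.32 ± 0.70, Scn4b, a sodium channel subunit, at 10.17 ± 0.75 and Chrna9, an acetylcholine receptor subunit, at 9.04 ± 0.93. Scel, sciellin, was at 10.08 ± 0.40, Itgb4, an integrin chain, at 8.58 ± 0.43 and Cldn4, a claudin, at 5.65 ± 0.30. Sit1, an adaptor that restrains T cell receptor signals, was at 7.92 ± 0.11. In CLP the 6 genes were Tmtc1, at 7.67 ± 0.06, Col19a1, a collagen, Hs3st1, a heparan sulfate enzyme, Synpo2l, Ebf1 and Efhd1. Ebf1 was the most uneven of the 6, at 6.54 ± 1.36.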
